A study of Mus musculus with 21 samples.

Results

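Mouse embryonic fibroblasts (MEFs) that had lost Rtel1 were compared with MEFs that kept Rtel1 and also expressed a mutant RTEL1, by RNA sequencing. The comparison used 6 of the 21 libraries of the series, namely the 3 Rtel1 F/F +Cre libraries and the 3 Rtel1 F/F RTEL1 C1252A/C1255A +GFP libraries, chosen by the titles that the labels give them, and libraries of the same replicate number were set side by side. Rtel1 F/F cells carry floxed alleles of Rtel1, which an adenovirus with Cre removes, and the control adenovirus carries GFP only. The Rtel1 F/F +Cre cells (deleted cells) received Cre and no mutant. The RTEL1 C1252A/C1255A +GFP cells (mutant-expressing cells) received GFP, kept the floxed alleles and expressed the mutant from a retroviral vector. All of these cells were collected 96 h after the adenovirus. The study lists Rtel1 F/F MEFs and Rtel1 F/F MEFs with the mutant vector as separate lines. Both groups therefore differed in the virus (Cre or GFP), in the mutant and in the line that carries it. These cannot be told apart in this comparison alone, and the mutant and its line in none of those used here. For this reason values of 2 more groups of 3 libraries are given beside it, Rtel1 F/F +GFP cells (undeleted, no mutant) and RTEL1 C1252A/C1255A +Cre cells (deleted, with the mutant).

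RTEL1 is a DNA helicase that unwinds G4-DNA during replication, and at telomeres it unwinds t-loops so that the chromosome end can be copied. The C1252A/C1255A mutant has lost the contact with TRF2 that brings RTEL1 to t-loops, while its helicase part is intact. Loss of RTEL1 is known to cause replication stress and fragile telomeres, and damaged DNA is known to activate p53 and, through DNA in the cytosol, interferon signalling. Setting deleted cells against cells with both RTEL1 forms asks which genes differ in expression between cells without RTEL1 and cells that hold its normal and its mutant form. The replaced cysteines lie at positions 1252 and 1255 of the labels' numbering, beyond the longest Rtel1 reading frame of the mouse annotation used (1209 codons), so they were not placed on a sequence.

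Each library held between 32069888 and 51938593 counts, and the 6 libraries compared held between 37651982 and 47906610. Rtel1, on chromosome 2 of GRCm38 (the assembly behind mm10) at 181319711 to 181356616, had 29.9, 31.9 and 26.8 CPM (read counts scaled by the normalized library size) in the deleted cells and 338, 328 and 331 CPM in the mutant-expressing cells. A gene's count here does not tell the vector's transcript from that of the floxed alleles, nor deleted exons from kept ones. In a principal component analysis of the 6 libraries, the first component (44.3% of the variance) placed replicate 2 of each group above the other replicates of its group, and the second held 34.6%. The collagen gene Col1a1 was low in the same libraries, with 1899, 644 and 1353 CPM in deleted and 2262, 787 and 1139.8 CPM in mutant-expressing cells. Counts are therefore also given without replicate 2 of both groups. Fibroblast markers were high, with at least 1464 CPM of Vim (vimentin) and 3181 CPM of Fn1 (fibronectin) in each of the 6 libraries, but Thy1 was at no more than 0.388 CPM. Of the other cell types' defining markers, Krt5 (epithelium), Tie1 and Emcn (endothelium), Tyrobp and C1qa (macrophages), Myod1, Myog and Pax7 (muscle), Sox10 (glia), Plin1 (fat cells) and Ibsp (bone) were at 0 counts in all 6. Krt18, an epithelial keratin, was the one marker of another cell type that was called, at 2.19, 2.06 and 2.16 CPM in deleted cells and 1.70-fold higher there, with no call without mutant-expressing replicate 3. Epithelial markers summed to 4.99 to 7.15 CPM in deleted and 5.16 to 7.39 CPM in mutant-expressing cells. Markers of neural and glial cells summed to more, 430 to 499 CPM in deleted and 342 to 417 CPM in mutant-expressing cells, and those of cartilage and bone to 62.3 to 72.7 and 66.9 to 75.4 CPM. Endothelial, muscle and fat cell markers summed to at most 6.58, 0.983 and 8.76 CPM in any of the 6 libraries. The part of such cells in the results was not tested.

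Of 13719 genes tested, 1064 (7.76%) were differentially expressed between deleted and mutant-expressing cells at an adjusted p of at most 0.01 by edgeR's quasi-likelihood test across all genes, from which all adjusted p-values below come. In the deleted cells 522 genes (3.80%) were higher and 542 (3.95%) were lower. The median absolute log2 fold change of the called genes was 0.77, and 410 of them differed by at least 1 on the log2 scale, 204 higher and 206 lower. All 1064 had no overlap between the 3 libraries of each group, which 24.3% of all genes tested also had, and all differed the same way in the 3 same-numbered pairs, as did 58.2% of all genes. Without replicate 2 of both groups 659 genes were called, 304 higher and 355 lower. In a fit of the 6 libraries alone 301 genes were called, and 1749 when that fit also held the replicate number as a block. The main fit held no such block, and with it over all 21 libraries 1426 genes were called, 723 higher and 703 lower. Against Rtel1 F/F +GFP cells, the same deleted cells differed at 5902 genes (43.0%, 22.0% higher and the rest lower), and the mutant-expressing cells differed from +GFP cells at 6138 genes (44.7%, 22.6% higher and 22.1% lower). Deleted cells differed from RTEL1 C1252A/C1255A +Cre cells, that is by the mutant and its line, at 590 genes (4.30%, 1.76% higher and 2.54% lower). The RTEL1 C1252A/C1255A +Cre cells differ from mutant-expressing cells by Cre alone. This means the Cre virus and the loss of the floxed alleles, which cannot be told apart. They differed from them at 150 genes (1.09%, 0.525% higher and 0.569% lower), or 289 with the replicate block. The last count was 65 in the 15 Rtel1 F/F libraries, 52 without replicate 3 of the RTEL1 C1252A/C1255A +Cre cells and 0 by edgeR in the 6 libraries alone (1256 at an unadjusted p under 0.05). These comparisons share libraries with each other and are given as values only. Same-numbered libraries of deleted and mutant-expressing cells deviated together from their group means (r = 0.78, 0.81 and 0.20). For deleted and +GFP cells r was only -0.017, 0.058 and 0.13, and for mutant-expressing and +GFP cells 0.028, 0.047 and 0.11. The +GFP libraries thus shared little of this replicate pattern, and its part in the differences from +GFP cells was not tested.

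**Figure D1:**
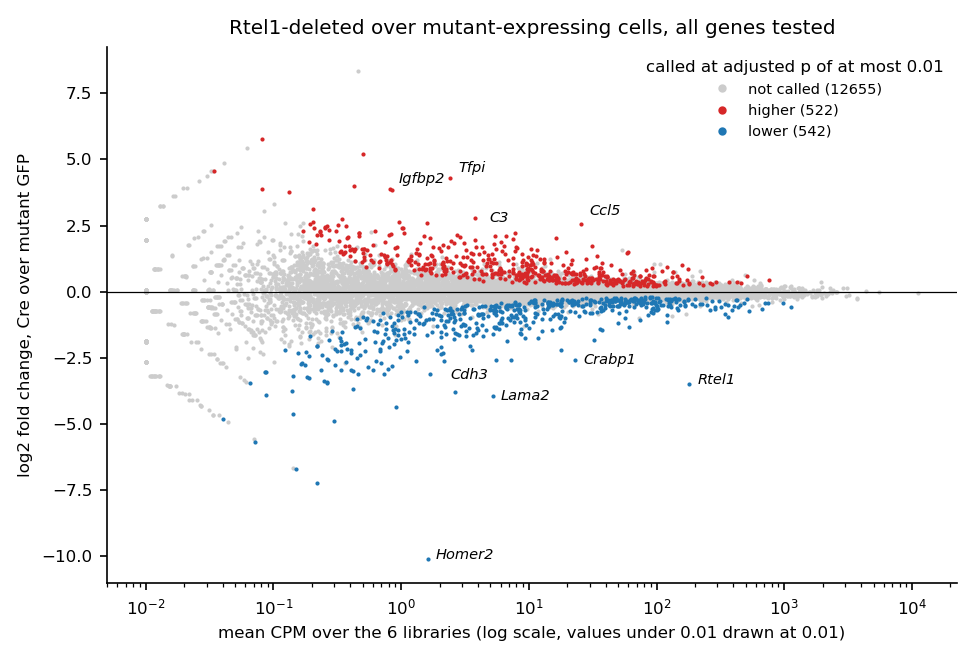
Log2 fold change of deleted (Cre) over mutant-expressing (mutant GFP) cells against the mean CPM over the 6 libraries (log axis), 1 point for each of 13719 genes. The 522 called higher (red) and 542 called lower (blue) lay at all levels, and Lama2, Rtel1 and Cdh3 stood lowest among genes that averaged 5 CPM or more.

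The genes that were lowest in deleted cells, among those that averaged 5 CPM or more, were led by Lama2. This gene, which encodes the laminin alpha2 chain of basement membranes, had 0.746, 0.620 and 0.546 CPM in deleted and 10.2, 9.90 and 9.23 CPM in mutant-expressing cells, a log2 fold change of -3.93 ± 0.16 (SE, adjusted p = 1.3e-11). The group means differed 15.4-fold. Rtel1 itself came next (log2 fold change -3.49 ± 0.09, adjusted p = 6.9e-15). Cdh3, which encodes P-cadherin, had 1.72, 1.59 and 1.42 CPM in deleted and 9.35, 9.28 and 9.80 CPM in mutant-expressing cells, and was 6.01-fold lower (adjusted p = 6.4e-11). Crabp1, a binding protein for retinoic acid, had 7.39, 6.48 and 6.11 CPM in deleted and 47.9, 33.5 and 37.6 CPM in mutant-expressing cells (log2 fold change -2.57 ± 0.14, adjusted p = 6.9e-10). That the groups did not overlap in these genes, and in the largest rises, follows from the rule that chose them. Tbc1d9, Arhgap36 and Arhgap24 followed, with log2 fold changes of -2.56, -2.19 and -1.86. Of these the first holds a domain typical of Rab GTPase-activating proteins and the last activates GTP hydrolysis by Rac. Sema3c, a secreted semaphorin that guides migrating cells, had 14.6, 14.8 and 13.2 CPM in deleted and 48.4, 54.8 and 48.6 CPM in mutant-expressing cells (log2 fold change -1.83 ± 0.07, adjusted p = 7.2e-12). The other 7 of the 15 largest falls ranged from -1.74 to -1.45. They were Mme (the peptidase neprilysin), Mbnl3 (a splicing factor of the muscleblind family), Klf8 (a transcription factor), Nt5e (the ecto-nucleotidase CD73), Pard3b (a polarity protein), Efemp1 (fibulin-3) and Cdh13 (T-cadherin).

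In the other direction, Ccl5, a chemokine for T cells and monocytes, had 43.2, 42.5 and 47.0 CPM in deleted and 9.17, 4.80 and 8.15 CPM in mutant-expressing cells, a 5.99-fold difference (log2 fold change 2.58 ± 0.17, adjusted p = 1.3e-08). Replicate 2 was the lowest library in both groups. C3, the central complement component, had 13.2, 11.8 and 13.4 CPM against at most 2.88 CPM (log2 fold change 2.23 ± 0.30, adjusted p = 6.4e-05). Mmp9, a gelatinase, had 28.2, 19.5 and 30.5 CPM against 7.41, 4.48 and 7.13 CPM (log2 fold change 2.03 ± 0.22, adjusted p = 4.5e-06). In both genes replicate 2 was the lowest of the deleted libraries. Ptpn22, a tyrosine phosphatase best known from lymphocytes, was 4.25-fold higher, and Vegfc, a growth factor for lymphatic vessels, 3.05-fold higher, with 15.4, 16.7 and 14.8 CPM against 5.10, 5.43 and 4.84 CPM. Ccbe1, whose product is needed for the processing of VEGF-C, was 3.27-fold higher. Apol9a and Apol9b, near-identical apolipoprotein L genes between which reads may be shared, had log2 fold changes of 1.69 and 1.99. Ecscr, Smoc2, Scube3 and Ctla2a ranged from 1.57 to 1.86, and the uncharacterized genes 3300005D01Rik and 5730559C18Rik had 2.12 and 1.61.

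**Figure D2:**
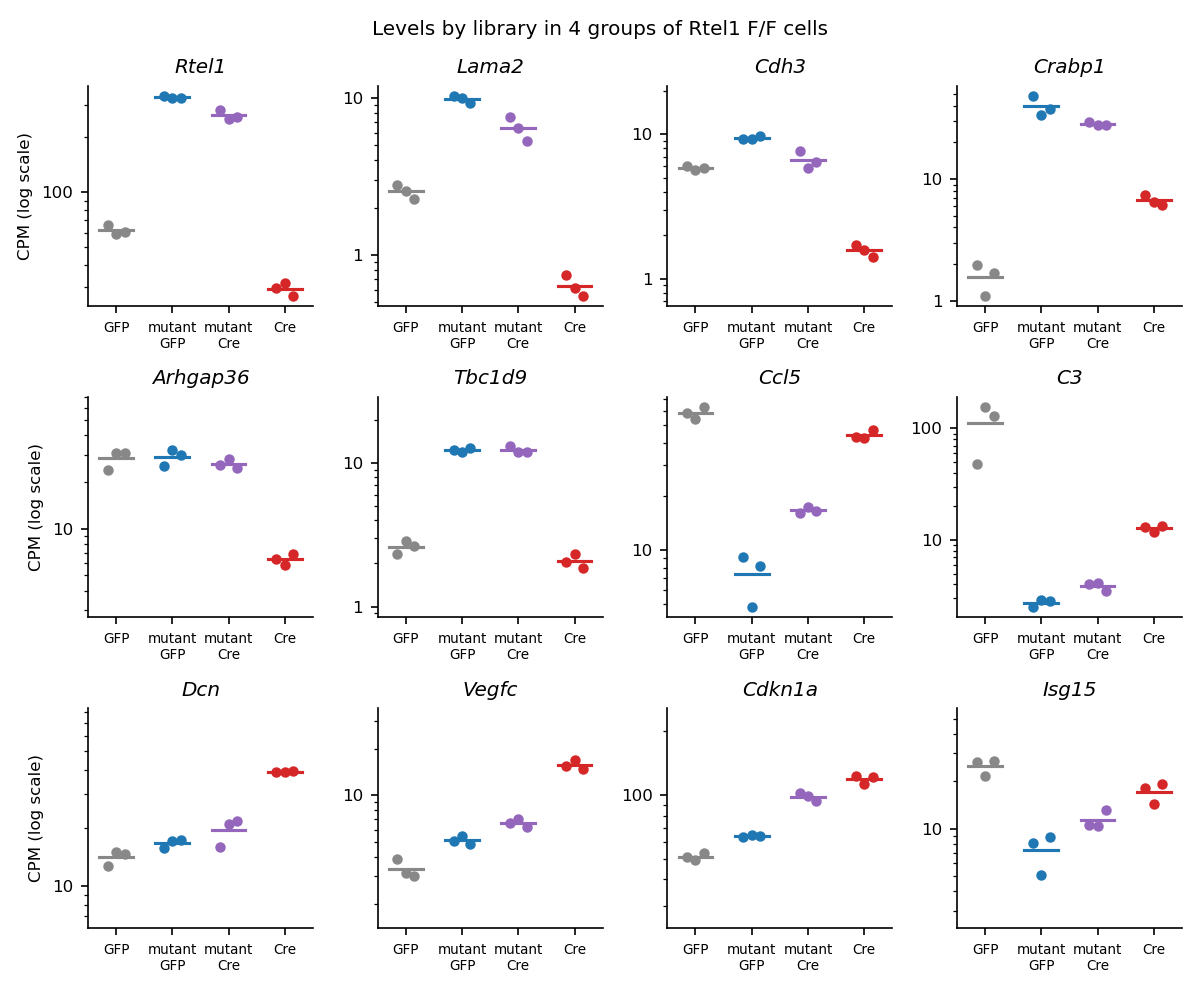
CPM (log axis) of 12 genes in the 3 libraries of each of 4 groups (points) with the mean (line). Deleted cells (Cre) were apart from mutant-expressing cells (mutant GFP) in each panel, while the +GFP cells lay beyond, beside or between them depending on the gene.

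RTEL1 C1252A/C1255A +Cre cells divide the difference into a step with the mutant line (deleted against mutant +Cre) and a step with Cre alone (mutant +Cre against mutant-expressing), whose log2 fold changes add up. For Tbc1d9 the first step was -2.56 and the second -0.00, and RTEL1 C1252A/C1255A +Cre cells had 12.3 ± 0.668 CPM (SD, n = 3), within the 11.9 to 12.7 CPM of mutant-expressing cells. Mmp9 (2.11 and -0.08) and Mbnl3 (-1.71 and -0.02) were alike in this. For Cdh13, by contrast, the first step was -0.22 (adjusted p = 0.24) and the step with Cre alone -1.23 (adjusted p = 1.3e-06), and Pard3b had -0.59 and -0.96, both called. Ccl5 had 1.40 and 1.18, again both called. Rtel1 itself was not called in the step with Cre alone. Among these genes with the largest changes the step with Cre alone was called for Ccl5, Ptpn22, Apol9a, Apol9b, Sema3c, Mme, Pard3b and Cdh13, while 1.09% of all genes were called in it. These genes were chosen by the whole difference, of which this step is a part, so their number cannot be set against that share.

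**Figure D3:**
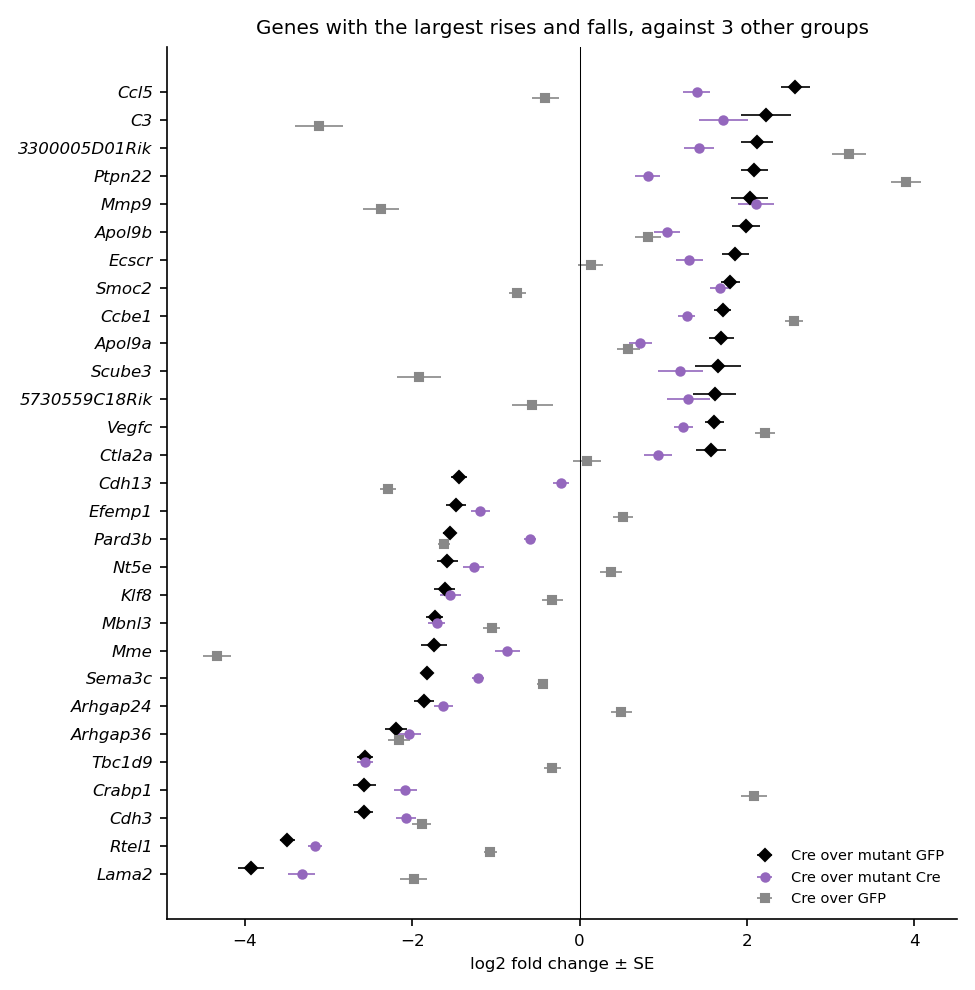
Log2 fold change ± SE of 14 of the largest rises and the 15 largest falls (genes averaging 5 CPM or more) for deleted cells over mutant-expressing cells (diamonds), RTEL1 C1252A/C1255A +Cre cells (circles) and Rtel1 F/F +GFP cells (squares). The squares lay on both sides of 0 for rises as well as falls, as for C3 at -3.12 and Crabp1 at 2.08.

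Against Rtel1 F/F +GFP cells, which lack the mutant, part of these genes differed the same way. Arhgap36 had 28.4 ± 3.99 CPM (SD, n = 3) in +GFP cells, and deleted cells were lower than them by a log2 fold change of -2.16, beside -2.19 against mutant-expressing cells. For Pard3b these values were -1.62 and -1.55, for Cdh3 -1.89 and -2.58, and for Lama2 -1.98 and -3.93. Upwards, Ccl9 (chemokine, 1.48 and 1.49), Vegfc (2.22 and 1.61), Ccbe1 (2.56 and 1.71) and Ptpn22 (3.90 and 2.09) were called against both. A direct test of +GFP against mutant-expressing cells, which is the test of the difference between both values, was not called for Arhgap36 (adjusted p = 0.83), Pard3b (0.43) and Ccl9 (0.95), and was called for the others. Other genes were called in opposite directions. C3 had 111 ± 56.1 CPM and Mmp9 135 ± 25.3 CPM (SD, n = 3) in +GFP cells, so that deleted cells were lower than +GFP cells (log2 fold change -3.12 and -2.38) and higher than mutant-expressing cells. Scube3 and Piezo2, a mechanosensitive channel, had 46.2 ± 3.14 and 32.1 ± 10.4 CPM in +GFP cells, with deleted cells lower by -1.92 and -1.81 against them and higher by 1.66 and 1.52 against mutant-expressing cells. Crabp1 was the reverse, with 1.58 ± 0.444 CPM in +GFP cells and a log2 fold change of 2.08 against them. For each of these 5 genes deleted cells thus lay between +GFP and mutant-expressing cells, which follows from the rule that chose them for opposite calls.

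Targets of p53, the transcription factor that arrests or kills cells with damaged DNA, were partly higher in deleted cells. Of 27 targets, all tested, 7 were called higher and 0 lower (25.9%, against 7.76% of all genes), with a median log2 fold change of 0.19 against 0.0048 for all genes. Cdkn1a, the cell cycle inhibitor p21, had 123, 113 and 121 CPM in deleted and 63.3, 64.9 and 64.0 CPM in mutant-expressing cells (log2 fold change 0.89 ± 0.06, adjusted p = 3.7e-09). Its groups were far apart and varied little within. Ccng1, a cyclin that acts back on p53, had 278, 277 and 256 CPM against 175, 202 and 171 CPM (log2 fold change 0.56, adjusted p = 9.7e-05). Mdm2, the ubiquitin ligase that degrades p53, had 163, 187 and 175 CPM against 117, 129.8 and 129 CPM (log2 fold change 0.48, adjusted p = 0.00029). Rrm2b (0.63), a subunit of ribonucleotide reductase that p53 induces, Eda2r (0.71), Trp53inp1 (0.67) and Phlda3 (0.35) were the others. Plk2, the target with the highest level per transcript length, had 603, 765 and 690.2 CPM against 897, 870.5 and 961 CPM and was not called (log2 fold change -0.41, adjusted p = 0.063). All targets of the list ranged from -0.41 to 0.89. In the step with Cre alone 5 were called higher and 0 lower, where 0.525% of all genes were higher and 0.569% lower. In the step with the mutant line 1 was higher and 1 lower, where 1.76% and 2.54% of all genes were. Against +GFP cells 14 were higher and 4 lower in deleted cells, where 43.0% of all genes were called, 22.0% higher. In mutant-expressing cells 10 were higher and 6 lower, where 22.6% and 22.1% of all genes were. Cdkn1a was at 51.1 ± 2.07 CPM (SD, n = 3) in +GFP cells. A fit of the 6 libraries alone called 2 of the targets, and 10 with the replicate block.

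Interferon-stimulated genes, which cells switch on through interferon receptors when they sense viral or misplaced nucleic acid, were partly higher in deleted cells. Of 42, all tested, 11 were called higher and 0 lower (26.2%, against 7.76% of all genes). Their median log2 fold change was 0.42, or 0.52 with the 2 genes at 0 counts in 1 group taken at their bound and without the 3 at or under the floor in both. Many of them carry a binding sequence for interferon-regulated transcription factors near their start, and the promoters are shown because they let a reader see it. GAAANNGAAA was searched on both strands in the 300 bases of each RefSeq promoter (GRCm38.p6, 250 before and 50 after the start). Of the 11 called genes 10 had a promoter in the table, of which 8 held the sequence anywhere in these 300 bases, as did 3.99% of all 27025 genes of the table. In 6 of the 8 it lay upstream of the start, a share that was not counted in the other genes. Of the 31 list members with a promoter, called or not, 20 held it (64.5%), but only 73.8% of the list had one, so a comparison of the called members with the list is void. A higher share than in all genes is thus a trait of the list and is not tied here to the change in expression. The windows around it in these 6, given 5′ to 3′ along the gene with the matches in capitals (TTTC is GAAA on the other strand), are as follows.
Isg15, chr4:156200855-156200916, minus strand: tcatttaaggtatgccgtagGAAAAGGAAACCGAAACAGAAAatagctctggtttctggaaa
Gbp3, chr3:142559979-142560034, plus strand: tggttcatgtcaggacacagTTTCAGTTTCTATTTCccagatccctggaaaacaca
Gbp2, chr3:142620584-142620633, plus strand: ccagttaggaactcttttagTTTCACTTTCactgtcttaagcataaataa
Gbp7, chr3:142530263-142530312, plus strand: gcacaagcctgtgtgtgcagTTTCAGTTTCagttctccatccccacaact
Ifit1, chr19:34640765-34640833, plus strand: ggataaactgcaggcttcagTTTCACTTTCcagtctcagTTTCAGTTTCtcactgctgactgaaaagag
Rsad2, chr12:26456543-26456592, minus strand: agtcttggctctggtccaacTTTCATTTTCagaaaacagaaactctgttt

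Isg15, a ubiquitin-like protein that is joined to other proteins, had 18.0, 14.3 and 19.2 CPM in deleted and 8.03, 5.05 and 8.88 CPM in mutant-expressing cells (log2 fold change 1.22 ± 0.16, adjusted p = 4.9e-05). Replicate 2 was lowest in both groups, and the groups did not overlap, as in every called gene. Gbp3, a guanylate-binding protein of cell-autonomous defence, had 6.76, 8.39 and 7.45 CPM against 2.58, 3.01 and 2.90 CPM (log2 fold change 1.41 ± 0.16, adjusted p = 4.8e-06), with Gbp2 at 0.86 and Gbp7 at 0.79. These genes are close relatives, and how reads were shared among them is not known. Oasl2, of the family of oligoadenylate synthetases, had 4.08, 6.03 and 4.45 CPM against 1.74, 1.09 and 1.96 CPM (log2 fold change 1.59). Ifit1 (0.79), which binds foreign RNA, Cmpk2 (1.21) and the neighbouring Rsad2 (1.03), which encodes viperin, were also called. So were the sensors of cytosolic RNA Ddx58, which encodes RIG-I, with 32.7, 38.1 and 33.2 CPM against 23.3, 25.1 and 24.3 CPM (log2 fold change 0.52), and Ifih1 (0.73), which encodes MDA5. Oas1b rested on 3, 1 and 4 counts against 0, 0 and 0, at least 2.86-fold higher when set against a floor of 3 counts over the group. Bst2, the member with the highest level per transcript length, had 28.9, 21.9 and 29.2 CPM against 22.0, 15.2 and 18.4 CPM and was not called (adjusted p = 0.063). The list's median was 0.22, 0.61 and 0.34 in the pairs of replicates 1, 2 and 3. In the step with the mutant line 1 member was called higher and 0 lower (median log2 fold change 0), where 1.76% and 2.54% of all genes were. In the step with Cre alone 0 members were called (median 0.22), where 1.09% of all genes were. Set against +GFP cells, the direction was the other way. In deleted cells 28 members were lower and 0 higher, where 43.0% of all genes were called, 22.0% higher and the rest lower, and in mutant-expressing cells 31 were lower and 0 higher, where 22.1% of all genes were lower and 22.6% higher. Isg15, for example, was lower in deleted than in +GFP cells by a log2 fold change of -0.54, and had 11.3 ± 1.56 CPM (SD, n = 3) in RTEL1 C1252A/C1255A +Cre cells, between both groups compared. The count of 11 was sensitive to the libraries. It was 6 without mutant-expressing replicate 2, 7 without mutant-expressing replicate 1 or deleted replicate 1 or 2, 4 without both replicates 2, and 1 in a fit of the 6 libraries alone (6 with the replicate block). Each of Gbp2, Gbp7, Cmpk2, Rsad2 and Oas1b lost its call without 1 or more of the 6 libraries, and the last 2 also with the replicate block over all libraries (adjusted p = 0.013 and 0.012).

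Chemokines and cytokines of the IL-6 family were also partly higher, 5 called higher and 0 lower of 17 tested of a list of 19 (29.4%, against 7.76% of all genes). Their median log2 fold change was 0.54 (0.92 without the 2 members at or under the floor in both groups). Cxcl10, a chemokine that interferon induces, had 146, 170.1 and 158 CPM in deleted and 83.5, 74.9 and 91.0 CPM in mutant-expressing cells (log2 fold change 0.93 ± 0.16, adjusted p = 0.00066). Ccl9 had 28.0, 30.6 and 28.3 CPM against 9.04, 12.4 and 9.50 CPM (log2 fold change 1.49). Ccl7 (0.92) and Il33, an alarmin stored in the nucleus and 2.47-fold higher, were also called, beside Ccl5. Cxcl10 had 122 ± 26.0 CPM (SD, n = 3) in +GFP cells, so that its +GFP value lay between both groups. In bulk samples more cells of a kind and more RNA per cell cannot be told apart. Markers of macrophages and blood cells, which also make these chemokines, summed to between 10.4 and 14.6 CPM in deleted and between 8.36 and 9.86 CPM in mutant-expressing cells, with 0 of the 3 tested markers called (1 higher with the replicate block or without deleted replicate 2). Their part in the chemokine and interferon results was not tested. Tyrobp and C1qa were at 0 counts in all 6 libraries, and Ptprc and Itgam had at most 3 counts. Without both replicates 2, or in a fit of the 6 libraries alone, 3 chemokines were called. Ccl7 lost its call when any single one of 4 of the 6 libraries was left out.

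**Figure D4:**
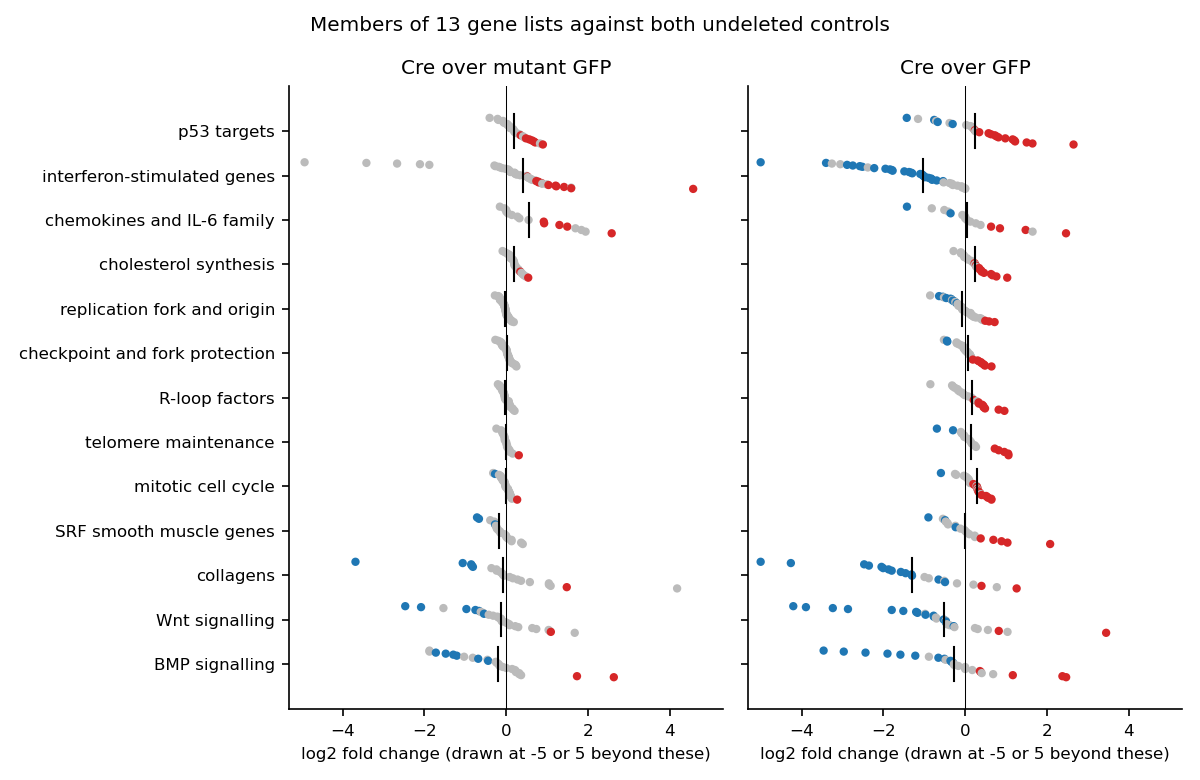
Log2 fold change of each tested member of 13 gene lists (points) in deleted over mutant-expressing cells (left) and over Rtel1 F/F +GFP cells (right), with the list median (bar). Red points were called higher and blue points lower. The 11 called interferon-stimulated genes on the left face 28 called lower on the right. The lists of replication and checkpoint genes held no called gene on the left, where 7.76% of all genes were called.

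Genes of the extracellular matrix changed in both directions. Of 22 collagen genes, all tested, 1 was called higher and 5 lower (27.3%, against 7.76% of all genes), with a median log2 fold change of -0.07. With the replicate block over all libraries 4 were higher, and without deleted replicate 3 only 3 were lower. Col11a1, a chain of a minor fibrillar collagen, had 50.2, 44.1 and 50.8 CPM in deleted and 104, 96.8 and 102 CPM in mutant-expressing cells (log2 fold change -1.06 ± 0.09, adjusted p = 1.9e-07). Col3a1, the type III chain of elastic tissue, had 269.8, 201 and 266 CPM against 530.2, 352 and 452 CPM (log2 fold change -0.86), and Col12a1 and Col8a2 had -0.82 and -0.84. Col14a1 rested on 3, 2 and 2 counts against 43, 20 and 38, a ratio of 13.5 (95% interval of the counts 6.31 to 34.4). Col6a3, by contrast, a chain of the beaded filaments around cells, had 99.0, 68.3 and 90.0 CPM against 36.7, 27.3 and 28.2 CPM (log2 fold change 1.48 ± 0.20, adjusted p = 5.7e-05). In RTEL1 C1252A/C1255A +Cre cells Col6a3 had 21.1 ± 6.49 CPM (SD, n = 3), and in +GFP cells 235 ± 34.5 CPM. The main fibrillar chain Col1a2 was not called (log2 fold change -0.09, adjusted p = 0.86). Among 12 small leucine-rich proteoglycans tested of 13, 1 was higher and 2 lower (25%, against 7.76% of all genes). Dcn, which encodes decorin and binds collagen fibrils, had 39.3, 38.9 and 39.7 CPM against 15.7, 17.1 and 17.3 CPM (log2 fold change 1.24 ± 0.11), while Fmod (-1.40) and Ogn (-0.81) were lower, although neither was called without mutant-expressing replicate 1 or 2 or deleted replicate 1 or 3. Matrix proteases and their inhibitors had 4 called higher and 2 lower of 23 tested of 24 (26.1%, against 7.76% of all genes, and 4 lower with the replicate block). Adamts1, with 21.2, 18.7 and 20.7 CPM against 55.2, 48.9 and 59.9 CPM (log2 fold change -1.43), and Adamts5 (-1.34) were lower. Mmp9, Adamts9 (1.69), Adamts4 (1.09) and Mmp19 (0.66) were higher. Of the 10 fibroblast markers 30% were called, against 7.76% of all genes. Pdgfra, a receptor for platelet-derived growth factor, was higher (82.7, 84.2 and 79.8 CPM against 48.4, 48.0 and 46.1 CPM, log2 fold change 0.79), and Col3a1 and Pdgfrb (-0.50) were lower, the latter not without replicate 1 or 3 of the mutant-expressing or 2 or 3 of the deleted cells.

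The BMP pathway, in which secreted ligands bind receptor pairs and secreted antagonists such as noggin keep ligands away, had 2 members called higher and 6 lower of 27 (29.6%, against 7.76% of all genes). Among ligands Bmp4 had 2.33, 1.24 and 1.99 CPM in deleted and 4.82, 4.02 and 4.04 CPM in mutant-expressing cells (log2 fold change -1.21 ± 0.21, adjusted p = 0.0006). The groups did not overlap, as in every called gene, and replicate 2 of the deleted cells was the lowest library. Among antagonists Nog (-1.72), Chrdl1 (-1.29), Grem1 (-0.69) and the follistatin-like Fstl1 (-0.44) were lower. Of the receptors, Bmpr1b was lower (-1.48) and Acvrl1 higher (2.63), both at low levels (at most 2.14 CPM). Wnt signalling, in which Dkk and Sfrp proteins are secreted antagonists and Fzd proteins receptors, had 1 higher and 6 lower of 29 tested of 32 (24.1%, against 7.76% of all genes). The antagonist Dkk2 had 0.606, 0.769 and 1.01 CPM against 4.01, 2.79 and 3.22 CPM (log2 fold change -2.08 ± 0.17), and Sfrp2 was lower by 5.61-fold. Dkk3 had 65.2, 66.4 and 70.7 CPM against 112, 116 and 114 CPM (log2 fold change -0.75, adjusted p = 1.8e-08). The ligand Wnt5a (-0.66), its receptor Ror1 (-0.54) and Fzd1 (-0.97) were lower too, and Nkd2 (1.09), an inhibitor inside the cell, was higher. In the IGF axis 3 members were higher and 2 lower of 13 (38.5%, against 7.76% of all genes). Igfbp7 had 53.8, 64.6 and 57.5 CPM against 26.4, 31.1 and 28.8 CPM (log2 fold change 1.03 ± 0.10), Igfbp4 (-0.84) and the imprinted RNA H19 (-0.96) were lower, and Igf2 (1.58) and Igfbp2 (3.87) were higher at low levels. Igfbp2 had 1.89, 0.695 and 2.05 CPM against 0.108, 0.109 and 0.0914 CPM, beside 25.9 ± 7.88 CPM (SD, n = 3) in +GFP cells. Without deleted replicate 1, or without mutant-expressing replicate 1, neither of the lower IGF members was called, and Igf2 lost its call with the replicate block (adjusted p = 0.019) and when any single library other than mutant-expressing replicate 1 was left out.

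Contractile genes driven by SRF had 0 members called higher and 3 lower of 20 (15.0%, against 7.76% of all genes), and targets of YAP and TAZ, which respond to cell shape and spread, 0 higher and 2 lower of 20 (10.0%, near the 7.76% of all genes). Acta2, smooth muscle actin, had 539, 489.8 and 521 CPM in deleted and 755, 852 and 854 CPM in mutant-expressing cells (log2 fold change -0.67 ± 0.08, adjusted p = 2.2e-05). Fhl1 (-0.72) and the focal adhesion protein vinculin (Vcl, -0.28, with no call when any single one of 5 of the 6 libraries was left out) were the others of the first list. Cyr61, a matricellular protein, had 838, 922 and 968 CPM against 1298, 1216 and 1511 CPM (log2 fold change -0.56), and F3, which encodes tissue factor, had -0.73. Without mutant-expressing replicate 3 the call of Cyr61 was lost. In +GFP cells Acta2 had 439 ± 44.2 and Cyr61 848 ± 60.8 CPM (SD, n = 3), nearer to deleted cells than to mutant-expressing cells. With the replicate block over all libraries 5 contractile genes were lower, and 3 YAP and TAZ targets were higher and 4 lower. Mesenchymal and positional transcription factors had 2 higher and 4 lower of 34 tested of 37 (17.6%, against 7.76% of all genes, and 9 lower with the block). Foxc2 had 3.29, 2.80 and 3.08 CPM against 9.04, 7.22 and 7.26 CPM (log2 fold change -1.36), and Foxc1 (-0.46), Tbx15 (-0.38) and Hoxc8 (-0.35) were lower, whereas Hoxa10 (0.57) and Hoxc10 (0.44) were higher. Hoxa10, Hoxc10 and Hoxc8 each lost their call when any single one of 5 of the 6 libraries was left out.

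Genes of cholesterol synthesis and uptake were mostly slightly above 0, with 21 of 23 positive and a median log2 fold change of 0.20, but 2 were called (8.70%, near the 7.76% of all genes). These were the sterol enzymes Nsdhl (0.54) and Sqle (0.34), the latter with 274, 308 and 292 CPM in deleted and 229, 235 and 226 CPM in mutant-expressing cells. With the replicate block 4 were called, and without replicate 1 or 3 of the mutant-expressing cells neither of these was called. Of 20 targets of ATF4, the factor of amino acid and unfolded protein stress, Vldlr alone was called (0.44). That is 5% of the list, near the 7.76% of all genes. With the block 2 were higher and 1 lower.

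Genes closest to the known work of RTEL1 differed little between deleted and mutant-expressing cells. Of all 13719 genes 7.76% were called, and 3385 had an unadjusted p under 0.05. At that share lists of this size would hold few calls, so a low count says little about a list. Of 42 genes of replication origins and forks 0 were called by edgeR (4 at an unadjusted p under 0.05, 2 lower by DESeq2, 1 lower with the replicate block), and their log2 fold changes ranged from -0.28 to 0.18. Pcna, the sliding clamp of the fork, had 374, 414 and 408 CPM in deleted and 400.2, 437 and 395 CPM in mutant-expressing cells, with overlapping groups. Of 32 genes of checkpoint signalling and fork protection 0 were called (4 at an unadjusted p under 0.05, 0 by DESeq2), ranging from -0.27 to 0.25, and of 23 genes that remove or prevent R-loops 0 were called (4 at an unadjusted p under 0.05, 1 lower by DESeq2), ranging from -0.21 to 0.20. Rnaseh1, which degrades RNA in hybrids, had a log2 fold change of 0.06 ± 0.12. Among 17 telomere genes tested of 18, Obfc1, which encodes a subunit of the CST complex, was higher (41.1, 47.3 and 46.2 CPM against 35.0, 37.4 and 36.5 CPM, log2 fold change 0.31, with no call when any single one of 5 of the 6 libraries was left out), and Terf1 and Terf2, which encode the telomere proteins TRF1 and TRF2, had -0.04 and -0.06. Of 11 helicases that unwind G4-DNA in vitro Rtel1 alone was called, and 2 were with the replicate block. In the step with the mutant line 1 of the 11 was lower, and in the step with Cre alone 0 were called, where 2.54% of all genes were lower and 1.09% called. Their CPM summed to 1162 to 1339 in deleted and 1497 to 1572 in mutant-expressing cells. The sums were 1402 to 1438 in RTEL1 C1252A/C1255A +Cre and 1052 to 1193 in +GFP cells. Dhx9 had a log2 fold change of -0.02. Of 30 mitotic genes Ccnb2, a mitotic cyclin, was higher (0.27) and Cdc20, an activator of the anaphase-promoting complex, lower (-0.28), and both calls were lost when any single one of 5 of the 6 libraries was left out. The median SE of the log2 fold change in these lists lay between 0.08 and 0.09.

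Of the genes on which the study dwells, Bmp4 (above) and Bcl6, a transcriptional repressor, were lower in deleted cells. Bcl6 had 16.8, 15.4 and 15.8 CPM against 21.8, 18.8 and 19.7 CPM (log2 fold change -0.33 ± 0.07, adjusted p = 0.0041), and it lost its call without mutant-expressing replicate 1 or deleted replicate 3. Adam22, with 0.816, 0.794 and 0.519 CPM against 0.861, 0.651 and 0.708 CPM, and Dapk1, with a log2 fold change of 0.08 ± 0.11, overlapped between the groups, although both were lower in deleted cells than in +GFP cells (log2 fold change -2.04 and -1.56). Mutant-expressing cells were lower than +GFP cells by nearly the same (-1.98 and -1.64). Slx4 (-0.16), Poldip3 (0.17) and Actb (-0.05) were not called.

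Genes were also grouped by chromosome and by the length of DNA they span. The 552 tested genes of chromosome 15 had a median log2 fold change of 0.19 in deleted over mutant-expressing cells, with 63 called higher and 20 lower (15.0%, against 7.76%). The medians of the other chromosomes lay between -0.06 and 0.08. In the 3 same-numbered pairs the median of chromosome 15 was 0.16, 0.15 and 0.20. It was 0.19 in the step with the mutant line and -0.01 in the step with Cre alone, -0.06 for deleted over +GFP cells and -0.25 for mutant-expressing over +GFP cells. Genes that span over 100 kb were called lower more often than higher, 217 against 89 of 1818 (16.8% called in all), with a median of -0.08 and pair medians of -0.09, -0.05 and -0.08. Genes under 20 kb had 129 lower and 207 higher of 6216 (5.41%). For long genes the median was 0.0010 in the step with the mutant line and -0.07 in the step with Cre alone. The copy number of chromosome 15 in these lines was not measured in the files used here, and its part was not tested. These are descriptions without a test, and genes of 1 chromosome or class share their libraries.

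**Figure D5:**
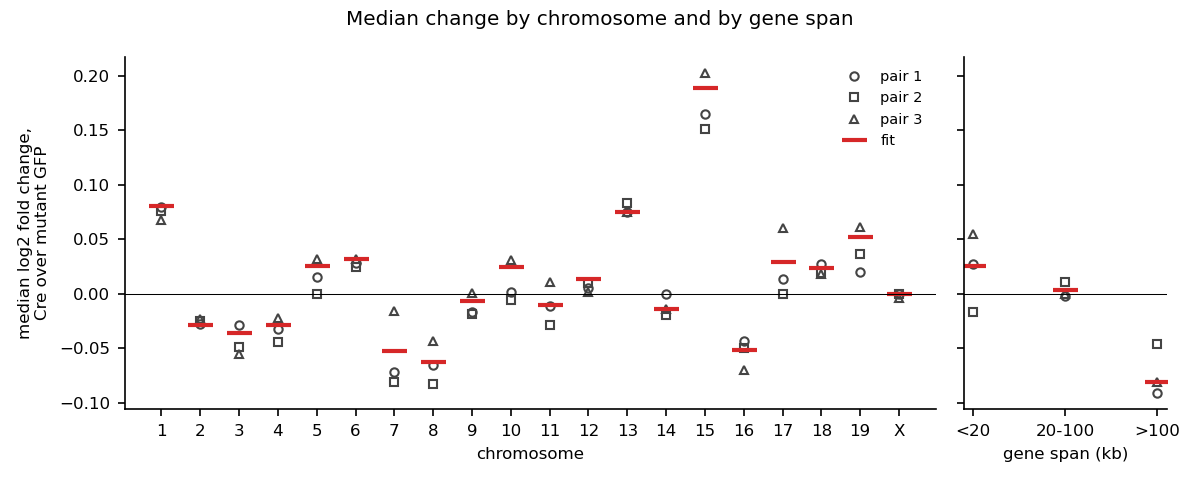
Median log2 fold change of deleted over mutant-expressing cells for the tested genes of each chromosome (left) and of 3 classes of gene span (right), from the fit (red) and in each same-numbered pair of libraries (grey symbols). Chromosome 15, at 0.15 to 0.20 in the 3 pairs, stood above all others, and genes over 100 kb stood below 0 in all 3.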

How the data were processed

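RNA from 21 MEF libraries was sequenced, and per the labels and the study's methods the authors used cutadapt 1.9.1 for trimming, STAR 2.5.2a for alignment and RSEM 1.3.0 to estimate the expected count of each of 24454 RefSeq genes of mm10. The authors deposited these expected counts, which were all whole numbers and had not been normalized. The deposited TPM values, which scale for transcript length, were used only to find the highest member of each list. The study's own tests used DESeq2. Reads of 1 molecule cannot be recognized in these counts, so intervals cover counting error only, and since the labels call the replicates biological without saying whether they were separate cultures, p-values measure only the spread between these libraries.

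Tests were run by edgeR 4.0.16 under R 4.3.3 on counts normalized by TMM (13719 genes kept by filterByExpr; a robust quasi-likelihood fit of all 7 groups of 3 libraries with 14 residual degrees of freedom). Tests were two-sided, with Benjamini-Hochberg adjustment over all genes tested and a threshold of 0.01. SEs were the absolute log2 fold change divided by the square root of F. Named genes were the 12 genes listed for the study, the 15 largest rises and falls that averaged 5 CPM or more and did not overlap, 6 each way against both controls, 5 in opposite directions, and of each list the 4 called members with the smallest adjusted p and the highest member per length. One gene that the rule names is not reported here. Further called list members, and Homer2, Peg3, Wasf3 and Tfpi, were chosen after their values were seen. The lists and the comparison were chosen with earlier results of these data known. Coordinates come from a RefSeq table of GRCm38 (23363 genes matched by symbol, 975 by synonym, 116 not). DESeq2 1.42.0 and the other alternatives are given in the closing section, as is the fit without the 3 Rtel1 F/F +GFP libraries, added after seeing the data. The fit was tested on simulated data. Same-numbered libraries of both groups deviated together from their group means (r = 0.78, 0.81 and 0.20 over 11840 genes averaging 1 CPM or more, each over the threshold of 0.1), which was taken as pairing, although the largest correlation between differently numbered libraries was 0.36, above that of the third pair. The main fit nevertheless held no replicate block, which entered only as an alternative. Figures were drawn with matplotlib 3.10.9.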

Additional observations from a re-analysis of the deposited data

How the results depend on the processing

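Between deleted and mutant-expressing cells, the 1064 genes called became 410 at an absolute log2 fold change of at least 1 (204 higher, 206 lower), 1797 at an adjusted p of 0.05 (899 and 898), 301 in a fit of the 6 libraries alone (130 and 171), 1749 in that fit with the replicate block (809 and 940) and 659 without replicate 2 of both groups (304 and 355, chosen after seeing the data). Leaving out each library gave 712 to 924 genes, 326 to 395 higher and 370 to 531 lower. Those higher were 339 without mutant-expressing replicate 1, 326 without its replicate 3 and 342 without deleted replicate 3. DESeq2 called 1241 genes, sharing 1024 with edgeR, and a fit without the Rtel1 F/F +GFP libraries (chosen after seeing the data) called 1018. For deleted against +GFP cells the counts were 1693 at a log2 fold change of at least 1, 2696 with the replicate block in 6 libraries and 4697 to 5761 with each library left out, and for mutant-expressing against +GFP cells 1849, 3367 and 4860 to 6016. Deleted against RTEL1 C1252A/C1255A +Cre cells gave 265 at a log2 fold change of at least 1, 971 at 0.05, 117 in 6 libraries and 388 (without deleted replicate 3) to 541 with a library left out. For RTEL1 C1252A/C1255A +Cre against mutant-expressing cells the 150 genes became 30 at a log2 fold change of at least 1, 416 at 0.05, 337 by DESeq2, 65 in the 15 Rtel1 F/F libraries, 0 by edgeR in 6 libraries (1256 at an unadjusted p under 0.05), 1214 in these with the replicate block, 289 with the replicate block over all libraries and 52 to 149 with a library left out (73 and 52 without replicates 2 and 3 of the first group, 62 and 71 without replicates 1 and 3 of the second). The replicate block over all 21 libraries called Runx2 and Twist2 (adjusted p = 0.0067 and 0.0053), ended 3 calls given in the report, moved by over 1.5 times the counts of lists given with a block value in the report and of lower cartilage and bone markers (0 to 1, Runx2), and changed no other call of a named gene.

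Of the named genes' values, 2219 kept their direction and side of the threshold, 297 lost their call, 13 gained one and 28 changed sign, all of these in uncalled genes near 0. Besides the losses given in the report, the calls of Trp53inp1, Phlda3, Igfbp4, Chrdl1, Ror1, Col8a2, Col12a1, Adamts4, Mmp19, H19, Nsdhl, Sqle, Igf2 and Krt18 were lost without 1 or more single libraries, and those of Cxcl10, Il33, Ifit1, Ifih1 and Fzd1 without both replicates 2. With libraries left out, the log2 fold change ranged from -0.18 to 0.074 for Actb, from -0.23 to 0.11 for Adam22, from -0.22 to 0.059 for Col1a2, from -0.030 to 0.11 for Dapk1, from -0.17 to 0.023 for Ddx5, from -0.15 to 0.045 for Dhx9, from -0.058 to 0.17 for Fdps, from -0.11 to 0.27 for H2afx, from -0.30 to 0.062 for Krt19, from -0.14 to 0.043 for Nop10, from -0.11 to 0.0037 for Pcna, from -0.095 to 0.030 for Psat1, from -0.032 to 0.16 for Rnaseh1, from -0.063 to 0.090 for Timp1. The cause of these changes was not tested. Shares of promoters with a G4 motif are not given, with loops of either length, because a promoter was matched for only 78.9% of genes tested, 76.1% of those higher and 74.9% of those lower.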

Other observations

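A few genes at low levels were all but on in only 1 of the groups compared. They were chosen after their values were seen. Homer2, a scaffold protein of receptor signalling on chromosome 7, had 0 counts in each of the 3 deleted libraries and 147, 136 and 124 counts in mutant-expressing cells, at least 127-fold lower in deleted cells when set against a floor of 3 counts over the group (adjusted p = 4.1e-09). It had 18, 17 and 15 counts in +GFP cells and 110, 104 and 78 in RTEL1 C1252A/C1255A +Cre cells. Peg3, an imprinted gene of the same chromosome that is expressed from the paternal copy, had 0 counts in the deleted libraries, 23, 16 and 17 in mutant-expressing, 2, 1 and 5 in +GFP and 16, 11 and 15 in RTEL1 C1252A/C1255A +Cre cells, at least 17.4-fold lower in deleted than in mutant-expressing cells. Wasf3, a regulator of actin branching, had 0.0466, 0.149 and 0.0546 CPM in deleted and 1.96, 1.57 and 1.69 CPM in mutant-expressing cells, beside 0.720 ± 0.265 CPM (SD, n = 3) in +GFP cells (log2 fold change -4.34 between the first 2 groups). Tfpi, the inhibitor of the tissue factor pathway of clotting, was the reverse, with 4.08, 4.89 and 4.94 CPM in deleted, 0.366, 0.217 and 0.114 CPM in mutant-expressing, 0.245 ± 0.0208 CPM in +GFP and 0.243 ± 0.0690 CPM in RTEL1 C1252A/C1255A +Cre cells (SD, n = 3). Its log2 fold change was 4.28 against mutant-expressing cells (adjusted p = 1.0e-09), 4.23 against +GFP cells and 4.22 against RTEL1 C1252A/C1255A +Cre cells, so that the 3 deleted libraries stood apart from those of all 3 other groups.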
